A study of Mus musculus with 6 samples.

Results

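Methionine cycle and transsulfuration genes were examined as a set of 10 genes, Mat1a, Mat2a, Gnmt, Ahcy, Mtr, Bhmt, Bhmt2, Cbs, Cth and Cdo1, out of the 29862 named on the array, taking every probe that the deposited signal table names for them. These came to 18 probes, 1 each for Mat1a, Gnmt, Bhmt2, Cbs and Cdo1 and several each for the other 5 genes. The arrays measured total RNA from whole liver of 3 knockout mice, given in the labels as Cugbp1 KO, and 3 wild-type mice, all killed at 3 days of age. Cugbp1, now named Celf1, encodes a protein that binds GU-rich elements in RNA and acts on splicing, decay and translation. The labels state no strain, allele, litter or dietary state, and nothing there says that a replicate was a pool. They also do not say that replicates were bred separately, so p-values measure only the spread between these 6 arrays.

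In the methionine cycle, methionine adenosyltransferase turns methionine into S-adenosylmethionine, the methyl donor of the cell, and the S-adenosylhomocysteine left after methyl transfer is split by the Ahcy enzyme into adenosine and homocysteine. Homocysteine is either methylated back to methionine, by the folate-dependent Mtr or the betaine-dependent Bhmt enzyme, or passed through Cbs and Cth to cysteine, the transsulfuration route. The liver is the main site of this metabolism, and its Mat2a form of methionine adenosyltransferase is known to give way to Mat1a around birth.

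Signals are given as log2 of the intensity scaled to each array's 75th percentile, and every difference is knockout minus wild-type on that scale. The 75th percentile of the raw signal ran from 350.2 on knockout 1 to 534.8 on knockout 2. Celf1 itself read 9.02, 8.61 and 8.94 on knockout 1, 2 and 3, against 12.04, 11.84 and 11.78 on wild-type 1, 2 and 3, so no knockout array reached the wild-type range. Whether its probe lies in the deleted part is not known. The labels describe the mice as male, but 4 of the 6 arrays, replicates 2 and 3 of both genotypes, detected Xist, the transcript of the inactive X chromosome, and not the Y-linked Ddx3y. Replicate 1 of both genotypes showed the reverse. Other tissues were also seen. Skeletal muscle markers, 14 of 16 tested, summed to 2936 on knockout 1, 77150 on knockout 2 and 512884 on knockout 3, against 2748, 3012 and 108892 on wild-type 1, 2 and 3. Exocrine pancreas markers, 12 of 16 tested, summed to 233931 on knockout 2 and to between 4411 and 13053 on the other arrays. Knockout 2, knockout 3 and wild-type 3 are therefore treated as arrays that stand apart, and results are also given without them.

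No gene of the set was called different between genotypes. The difference exceeded the residual SD only for Cdo1 (-0.87, residual SD 0.66) and Mtr (-0.15, residual SD 0.08). Of the 10, 0 passed an adjusted p of 0.05 by limma, beside 0.00323% of the 30929 features tested, and 0 had an unadjusted p under 0.05, beside 2.98% of all features (1.55% higher and 1.44% lower). For single probes the same count was 0 of 18, beside 2.95%. In 0 of the 10 genes, and in 0 of their 18 probes, did the knockout and wild-type arrays fall into ranges that do not overlap, beside 6.71% of all features and 6.63% of all probes. The fitted difference was above 0 for Bhmt2, Cbs and Cth and below 0 for the other 7 genes, with a median of -0.18, against -0.0024 over all features. That median was 0.09 when wild-type 2 was left out. All 18 probes lay above the detection level on all 6 arrays, so none entered through 1 genotype alone. Celf1 itself, at -3.03 without overlap between genotypes, did not pass the adjusted p either (0.0556 by limma). A count of 0 past the adjusted p therefore does not show that the genes of the set are unchanged.

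**Figure D1:**
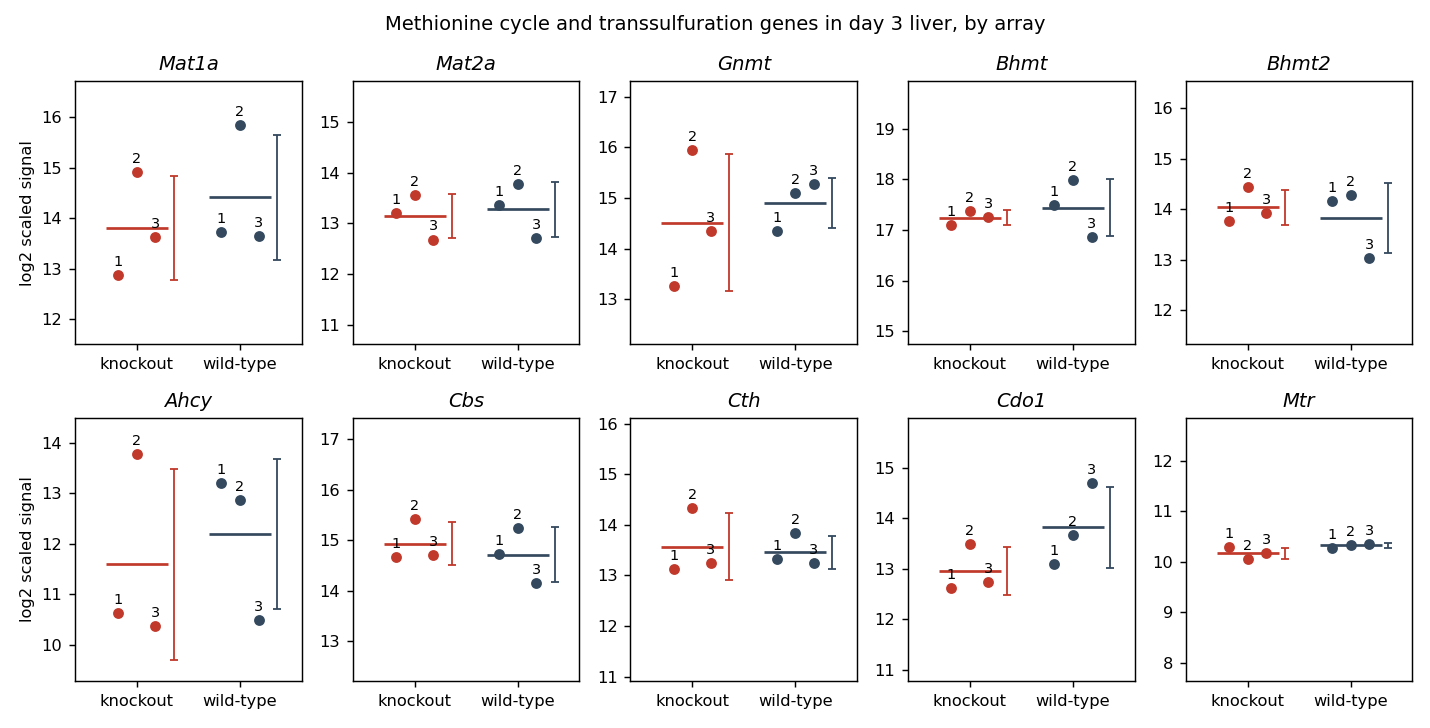
Log2 scaled signal of the 10 methionine cycle and transsulfuration genes on each array, 1 panel per gene, knockout left and wild-type right, with replicate numbers beside the points, a bar at the mean and the SD beside it (n = 3). The vertical axis spans the same width in every panel, and the genotypes overlap for all 10 genes, with Ahcy the most spread and Mtr the least.

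Mat1a encodes the methionine adenosyltransferase of the mature liver. Its signal was 12.88 on knockout 1, 14.92 on knockout 2 and 13.63 on knockout 3, against 13.73 on wild-type 1, 15.84 on wild-type 2 and 13.66 on wild-type 3. Replicate 2 was the highest array of both genotypes, and the genotypes overlapped over most of their range. The difference was -0.60 ± 0.74 (SE), with a 95% interval from -2.37 to 1.17 and an unadjusted p of 0.446 by limma. With the replicate number as a block that p was 0.0788 and the adjusted p 0.999986. Within replicate numbers the difference was -0.85, -0.92 and -0.03, so it lay below 0 in all 3 pairs and near 0 in the third. The sign changed, to 0.11, when wild-type 2 was left out.

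Mat2a encodes the form of fetal liver and of tissues outside the liver, and its transcript is known to be stabilised when S-adenosylmethionine runs low. It read 13.20, 13.56 and 12.68 on knockout 1, 2 and 3, against 13.36, 13.78 and 12.70 on wild-type 1, 2 and 3. The values within a replicate number lay closer together than those within a genotype, with replicate 2 highest and replicate 3 lowest in both. The difference was -0.13 ± 0.36 (95% interval -1.0 to 0.73), and a second probe gave 0.04. Its sign turned to 0.10 without knockout 3 and to 0.11 without wild-type 2.

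The signal of Mat2a minus that of Mat1a within an array was used to set the fetal against the adult form between genotypes. Since different probes carry the 2 genes, its sign says nothing on which transcript is more abundant. It was 0.32 on knockout 1, -1.36 on knockout 2 and -0.95 on knockout 3, against -0.37 on wild-type 1, -2.06 on wild-type 2 and -0.95 on wild-type 3. The genotypes overlapped, and replicate 1 was highest and replicate 2 lowest in both. The means were -0.66 ± 0.87 in knockout and -1.13 ± 0.86 in wild-type (SD, n = 3 each), a difference of 0.47. By replicate number the differences were 0.69, 0.70 and 0.0065. Without wild-type 2 the difference was -0.00034 and without knockout 1 it was -0.02. On the arrays with low muscle and pancreas markers alone, which leave knockout 1 against wild-type 1 and 2, it was 1.53. Those arrays include wild-type 2 but not knockout 2, each the lowest of its genotype.

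**Figure D2:**
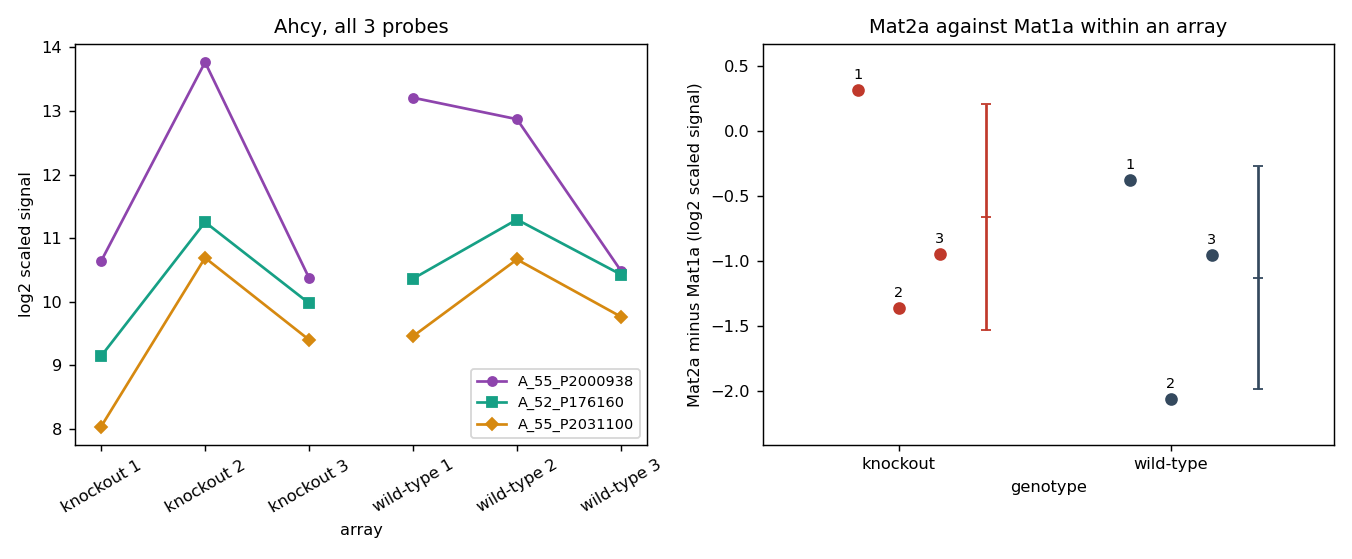
Left, log2 scaled signal of the 3 Ahcy probes on each array, lines joining the arrays of 1 genotype. Right, Mat2a minus Mat1a log2 signal on each array with replicate numbers, mean and SD (n = 3), knockout left of wild-type; A_55_P2000938 parts from the other probes on wild-type 1, and the ratio is highest on replicate 1 of both genotypes.

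Gnmt encodes glycine N-methyltransferase, which uses up S-adenosylmethionine by methylating glycine to sarcosine and is abundant in adult liver. Its signal was 13.25, 15.94 and 14.35 on knockout 1, 2 and 3, against 14.34, 15.10 and 15.28 on wild-type 1, 2 and 3. Knockout 1 was the lowest and knockout 2 the highest of all 6 arrays, so the wild-type values lay wholly inside the knockout range. The difference was -0.39 ± 0.67 (95% interval -1.99 to 1.20), and by replicate number it was -1.09, 0.84 and -0.93. Its sign turned, to 0.24, when knockout 1 was left out.

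Ahcy encodes the hydrolase that removes S-adenosylhomocysteine, an inhibitor of methyltransferases. Its probe with the highest mean, A_55_P2000938, read 10.64, 13.77 and 10.38 on knockout 1, 2 and 3, against 13.21, 12.87 and 10.49 on wild-type 1, 2 and 3. These values fell into a high group of knockout 2, wild-type 1 and wild-type 2 and a low group of the other 3 arrays, across both genotypes. The difference was -0.60 ± 1.09 (95% interval -3.18 to 1.99, unadjusted p = 0.601 by limma), with a residual SD of 1.70, wider than that of 98.8% of all features. The difference was 0.01 without knockout 3 and -1.68 without knockout 2.

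A second Ahcy probe, A_52_P176160, read 9.15, 11.25 and 9.98 on knockout arrays, against 10.36, 11.29 and 10.43 on wild-type arrays. The third, A_55_P2031100, read 8.04, 10.69 and 9.40 on knockout arrays, against 9.46, 10.67 and 9.77 on wild-type arrays. Both were highest on replicate 2 of either genotype and lowest on knockout 1. These 2 probes correlated with each other at a Pearson r of 0.99 over the 6 arrays, and with A_55_P2000938 at 0.73 and 0.65. All 3 probes gave like differences between genotypes, of -0.60, -0.57 and -0.59. What sequence each probe reads is not given in the files, and whether A_55_P2000938 also reads another transcript was not tested.

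Mtr encodes methionine synthase, which methylates homocysteine with methyl-folate and cobalamin. It read 10.28, 10.06 and 10.17 on knockout 1, 2 and 3, against 10.28, 10.33 and 10.36 on wild-type 1, 2 and 3. The arrays overlapped only through replicate 1, where the genotypes were nearly equal. The difference was -0.15 ± 0.20 (95% interval -0.62 to 0.31), and a second probe gave -0.13. Its residual SD, 0.08, was smaller than that of all but 1.12% of features, and the 3 wild-type arrays spanned 1.06-fold. Without knockout 2 the difference was -0.10. The interval of the fit is wider than this spread because limma moderates each gene's variance towards that of all features.

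Bhmt encodes betaine-homocysteine methyltransferase, the other remethylating enzyme, and the product of its paralog Bhmt2 takes its methyl group from S-methylmethionine. The brightest Bhmt probe read 17.09, 17.37 and 17.26 on knockout 1, 2 and 3, against 17.49, 17.98 and 16.85 on wild-type 1, 2 and 3. The knockout values lay inside the wild-type range. The difference was -0.20 ± 0.32 (95% interval -0.97 to 0.56), while the other 3 Bhmt probes gave -0.07, -0.02 and -0.04. Under quantile normalization the sign of the brightest probe turned, to 0.02. Of the 4 Bhmt probes, 3 moved together over the arrays, with correlations of 0.95 to 0.99. The fourth, at 7.52 to 8.17 on every array, correlated with them at 0.11 to 0.25.

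Bhmt2 read 13.76, 14.43 and 13.92 on knockout 1, 2 and 3, against 14.16, 14.28 and 13.04 on wild-type 1, 2 and 3. Wild-type 3 was the lowest array and knockout 2 the highest. The difference was 0.21 ± 0.39 (95% interval -0.72 to 1.15), by replicate number -0.40, 0.15 and 0.88, and it was -0.18 without wild-type 3.

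Cbs encodes cystathionine beta-synthase, which joins homocysteine to serine. It read 14.66, 15.42 and 14.70 on knockout 1, 2 and 3, against 14.72, 15.25 and 14.16 on wild-type 1, 2 and 3. As with Bhmt2, wild-type 3 was lowest and knockout 2 highest. The difference was 0.22 ± 0.36 (95% interval -0.64 to 1.08), and it was -0.06 without wild-type 3 and -0.03 without knockout 2.

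Cth encodes cystathionine gamma-lyase, which releases cysteine from cystathionine. Its signal was 13.13, 14.34 and 13.24 on knockout 1, 2 and 3, against 13.32, 13.84 and 13.24 on wild-type 1, 2 and 3. Replicate 2 stood above the other arrays in both genotypes, and replicates 1 and 3 differed little between them. The difference was 0.11 ± 0.38 (95% interval -0.80 to 1.01), with a second probe at -0.0048. Without knockout 2 it was -0.28.

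Cdo1 encodes cysteine dioxygenase, which commits cysteine to taurine and sulfate. It read 12.63, 13.49 and 12.74 on knockout 1, 2 and 3, against 13.10, 13.66 and 14.69 on wild-type 1, 2 and 3. Wild-type 3 was the highest array, and only knockout 2 lay above a wild-type array. The difference of -0.87 ± 0.46 (95% interval -1.95 to 0.22) had the lowest unadjusted p of the 10 genes, 0.101 by limma, with an adjusted p of 0.999994. By replicate number it was -0.47, -0.17 and -1.95, below 0 in all 3 pairs, and without wild-type 3 it was -0.43. Mat1a, Mat2a and Cdo1 were the 3 genes lower in knockout in every pair, which also held for 10.8% of all features.

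**Figure D3:**
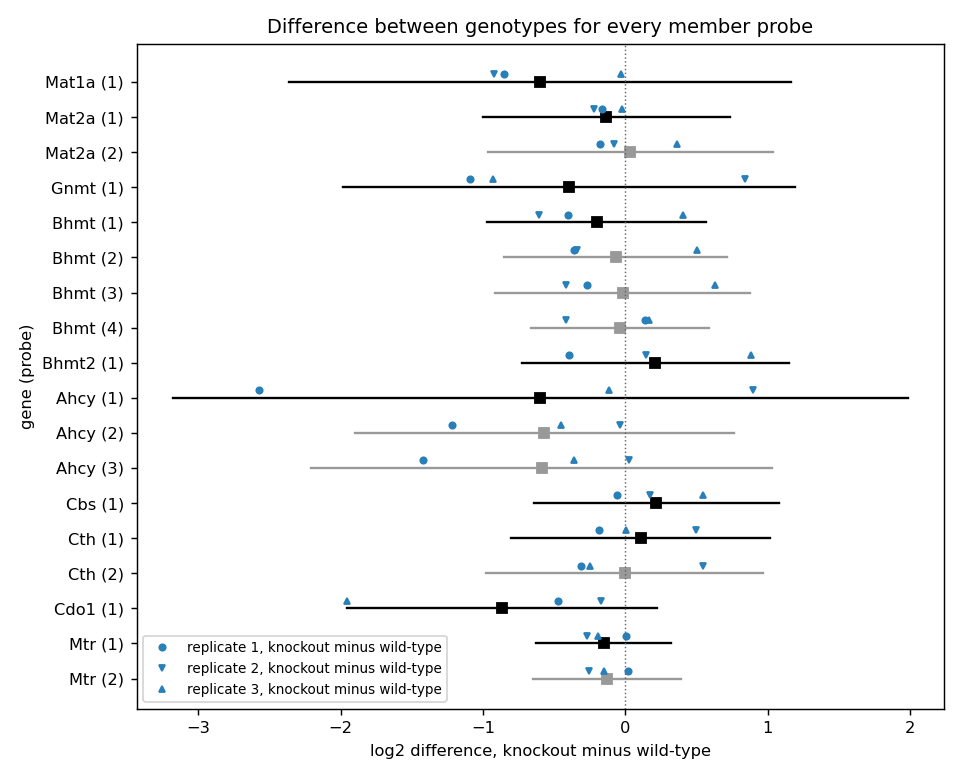
Log2 difference, knockout minus wild-type, for each of the 18 probes (squares, the probe representing its gene in black and further probes in grey) with 95% intervals, and the difference within each replicate number (blue marks). Every interval covers 0, and the widest belongs to the first Ahcy probe.

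Many of the genes shared the order of their arrays. Within knockout, 9 of the 10 genes were highest on knockout 2, against 36.9% of all features, and 7 were lowest on knockout 1, against 30.5%. Within wild-type, 6 were highest on wild-type 2, against 32.1% of all features, and 7 were lowest on wild-type 3, against 39.6%. Replicate 2 was highest in both genotypes for 6 genes, Mat1a, Mat2a, Bhmt, Bhmt2, Cbs and Cth, against 17% of all features. The summed signal of the 10 genes was 224024 to 388627 on knockout arrays and 243350 to 461695 on wild-type arrays. Residual SDs were above the median of all features, 0.39, for 9 of the 10 genes, with Mtr the exception, and their median was 0.53.

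The full set gave 45 pairs, and every correlation below 0 was in a pair with Cdo1 or Mtr. Leaving out Cdo1 and Mtr therefore raises the values that remain. The other 8 genes gave 28 pairs, whose correlations over the 6 arrays ran from 0.18 to 0.92, with 24 above 0.5. The closest were Bhmt2 and Cbs, at 0.92. Mtr correlated below 0 with 8 of the other 9 genes, from -0.59 to 0.39. Cdo1 ran from -0.50, with Bhmt2, to 0.68, with Gnmt. These values describe the same 6 arrays, which share scaling and differ in tissue content, and carry no test. No such count is given for pairs of all features, so 24 of 28 is not shown to be high. The named genes outside the set whose signal ran most like Mat1a, among 20421 compared, were Zfp746, Ctif and Pex19, at 0.998, 0.996 and 0.996. For Mat2a they were Crk, Mal2 and Fam72a, at 0.997, 0.994 and 0.992. With so many genes and 6 arrays, such values describe order over the arrays only.

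**Figure D4:**
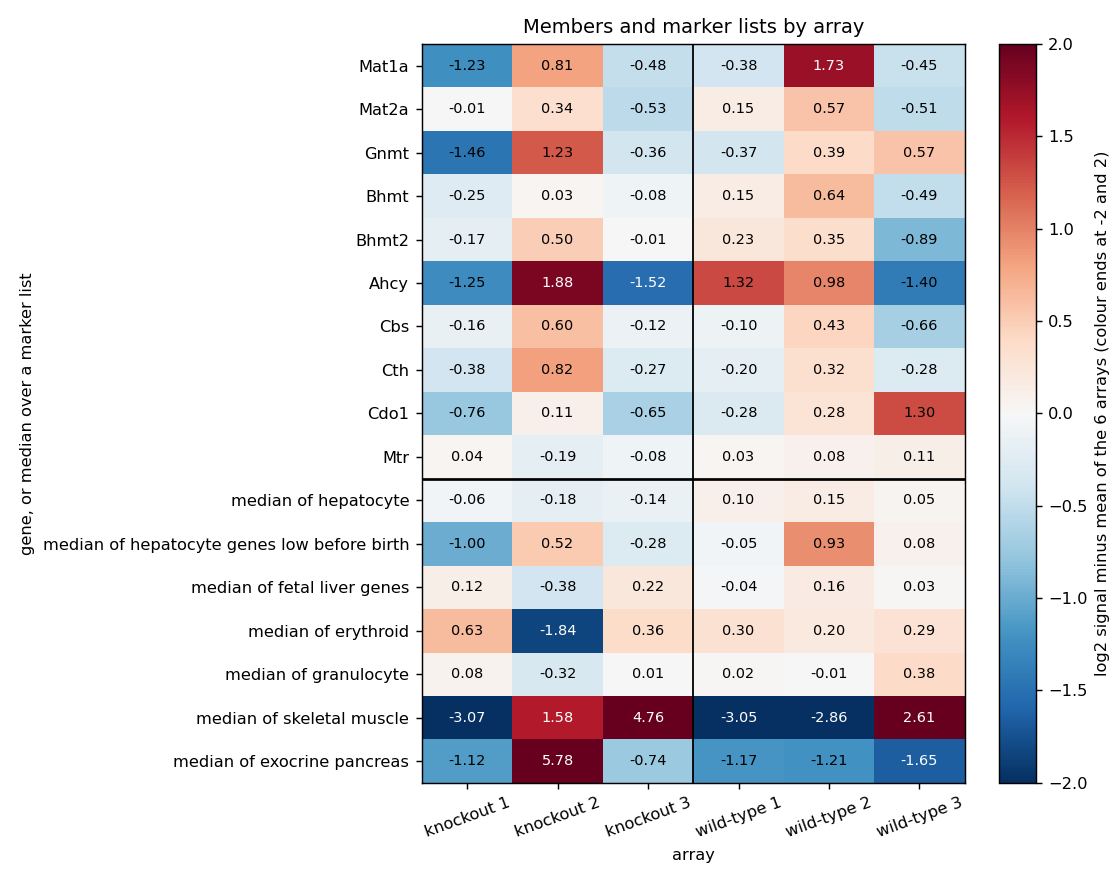
Log2 signal minus the mean of the 6 arrays for the 10 genes (upper rows) and the median of the same quantity over each marker list (lower rows), knockout arrays left and wild-type arrays right. Replicate 2 is highest in both genotypes for 6 of the 10 genes, and Mtr is near 0 throughout. The muscle list is at 1.58 on knockout 2, 4.76 on knockout 3 and 2.61 on wild-type 3. It is at -3.07 on knockout 1, -3.05 on wild-type 1 and -2.86 on wild-type 2. The pancreas list is above 0 only on knockout 2, at 5.78.

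Marker lists moved over the same arrays. Hepatocyte genes that are low before birth had a median, relative to the mean of the 6 arrays, of -1.0 on knockout 1, 0.52 on knockout 2 and -0.28 on knockout 3, against -0.05, 0.93 and 0.08 on wild-type 1, 2 and 3. This list was highest on replicate 2 of both genotypes, as 6 of the 10 methionine genes were, and lowest on knockout 1. The median over the 10 genes was lowest on wild-type 3, at -0.47, with knockout 1 at -0.32. In the list of hepatocyte genes low before birth, Tat, a tyrosine aminotransferase gene induced after birth, differed by -1.38 ± 0.84. Cps1, of the urea cycle, differed by -0.74 ± 0.46, and Hpd, of tyrosine breakdown, by -0.58 ± 0.33. Aqp9, a glycerol channel gene, differed by -0.51 ± 0.30. Without knockout 1, Tat gave -0.54, Cps1 -0.33 and Hpd -0.38, and without wild-type 2 Aqp9 gave -0.25. Of the 14 tested genes of that list 10 were lower in knockout, with a median of -0.44, and 0 passed the adjusted p.

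Fetal liver genes, 12 of 12 tested, had a median difference of -0.0021, with 6 higher and 6 lower. Gpc3, a glypican gene, differed by -0.54 ± 0.22 (unadjusted p = 0.0456 by limma), with a further probe, detected on 4 of the 6 arrays, at 1.18. It was the only 1 of the 12 with an unadjusted p under 0.05, beside 2.98% of all features. The cell cycle inhibitor gene Cdkn1c differed by 0.97 ± 0.69, the imprinted RNA H19 by -0.26 ± 0.20 and the transcription factor gene Plagl1 by 0.33 ± 0.25, none past the adjusted p. Gpc3 and H19 were lower in knockout without overlap between genotypes, 2 of the 12, where 3.18% of all features were. Their further probes, that of H19 at -0.24, did overlap. Further Plagl1 probes gave 0.36, -0.16 and 0.0028. Cdkn1c gave 0.41 without knockout 1 and Plagl1 0.13 without knockout 3.

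General hepatocyte markers such as Alb, the albumin gene, summed to 2555160 to 2977520 on knockout arrays, below the 3212280 to 3369650 on wild-type arrays. Of the 11 tested, 9 were lower in knockout with a median of -0.26, and 5 of these did not overlap between genotypes, where 3.18% of all features were lower without overlap, but 0 passed the adjusted p. Erythroid markers, of blood cell precursors that the newborn liver still holds, summed to 515571 on knockout 2 and to between 1250770 and 1545510 on the other arrays. In whole liver, fewer hepatocytes and less RNA per hepatocyte cannot be told apart, and the part of any of these lists in the values of the methionine genes was not tested.

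Without knockout 2, knockout 3 and wild-type 3, all 10 genes were lower on knockout 1 than in the mean of wild-type 1 and 2, where 41.6% of all 33321 features were lower. Their median difference was -0.55, against 0.09 over all features. Ahcy gave -2.40 ± 0.32, Mat1a -1.90 ± 1.02 and Gnmt -1.47 ± 0.45. The Ahcy value and its SE rest on A_55_P2000938, at 13.21 and 12.87 on wild-type 1 and 2. A_52_P176160 read 10.36 and 11.29 there, and A_55_P2031100 9.46 and 10.67, so the wild-type pair lay further apart on both. Both were also lower on knockout 1, at 9.15 and 8.04. The unadjusted p was under 0.05 for 2 of the 10, Ahcy at 0.00303 and Gnmt at 0.0381 by limma, beside 7.26% of all features, and 0 passed the adjusted p (0.505 and 0.644). The fit without these 3 arrays has 1 knockout array, taken to vary like the wild-type pair, and knockout 1 was also the array with the lowest raw signal. It keeps wild-type 2, highest in wild-type for 6 of the 10 genes and with Xist detected, but not knockout 2. Between knockout 1 and wild-type 1 alone, 9 of the 10 were lower, with a median of -0.40, against 0.06 over all features. There Ahcy gave -2.57, Mat1a -0.85 and Gnmt -1.09. When replicate 1, the only number with Y-linked signal, was left out of both genotypes instead, 6 of the 10 were lower in knockout. The median was -0.07, with Ahcy at 0.39 ± 1.40 on A_55_P2000938. By replicate number this probe gave 0.90 in replicate 2 and -0.11 in replicate 3. A_52_P176160 gave -0.04 and -0.45 there, and A_55_P2031100 0.03 and -0.36.

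Promoter sequence was at hand for 7 of the 10 genes, all but Mat1a, Cth and Cdo1. Ahcy and Gnmt are shown as those with the widest spread over the arrays among these 7, Mtr as the gene with the narrowest, and Bhmt and Bhmt2 because the paralogs are neighbours on the chromosome. Each line gives, 5′ to 3′ in the direction of transcription, the 250 bases before the annotated start, from RefSeq on mouse build GRCm38.p6. Capitals mark matches to the TATA box (TATAAA), the CCAAT box (CCAAT) or the GC box (GGGCGG), searched on both strands. All 5 genes lie on the minus strand, with these windows at chr2:155074498-155074747, chr17:46729166-46729415, chr13:12258114-12258363, chr13:93637759-93638008 and chr13:93674303-93674552.
Ahcy: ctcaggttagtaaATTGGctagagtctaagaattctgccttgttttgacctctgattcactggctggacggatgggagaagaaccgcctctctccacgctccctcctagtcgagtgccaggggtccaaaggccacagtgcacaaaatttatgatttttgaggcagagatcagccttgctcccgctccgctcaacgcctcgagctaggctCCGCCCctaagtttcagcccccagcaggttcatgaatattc
Gnmt: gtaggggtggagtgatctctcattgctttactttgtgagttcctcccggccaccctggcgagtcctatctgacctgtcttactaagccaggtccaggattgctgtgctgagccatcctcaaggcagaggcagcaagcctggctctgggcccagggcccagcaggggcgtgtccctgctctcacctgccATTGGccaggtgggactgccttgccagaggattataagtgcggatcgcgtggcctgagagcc
Mtr: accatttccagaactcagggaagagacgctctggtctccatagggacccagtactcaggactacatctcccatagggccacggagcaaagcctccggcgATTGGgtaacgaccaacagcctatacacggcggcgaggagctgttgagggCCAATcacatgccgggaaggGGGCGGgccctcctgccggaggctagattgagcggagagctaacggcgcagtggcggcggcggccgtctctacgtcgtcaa
Bhmt: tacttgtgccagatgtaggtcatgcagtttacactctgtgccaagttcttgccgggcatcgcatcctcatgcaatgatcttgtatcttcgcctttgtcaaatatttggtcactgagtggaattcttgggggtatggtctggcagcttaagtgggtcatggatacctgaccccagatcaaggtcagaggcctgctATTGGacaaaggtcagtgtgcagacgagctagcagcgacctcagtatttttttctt
Bhmt2: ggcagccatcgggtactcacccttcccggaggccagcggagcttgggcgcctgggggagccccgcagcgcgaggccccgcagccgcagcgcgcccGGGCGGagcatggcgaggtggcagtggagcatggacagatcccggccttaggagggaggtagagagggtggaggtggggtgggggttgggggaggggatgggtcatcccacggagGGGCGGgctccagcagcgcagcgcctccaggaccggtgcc

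The Ahcy window held a CCAAT and a GC box match and 9 CpG dinucleotides. The Gnmt and Bhmt windows held 1 CCAAT box match each, with 6 and 5 CpG. The Mtr window held 2 CCAAT and 1 GC box match with 20 CpG, and the Bhmt2 window 2 GC box matches, also with 20 CpG. Among all 32851 windows of this length, 12.4% held a TATA box match, 33.9% a CCAAT box match and 32.7% a GC box match. None of the 5 windows shown held TATAAA, which says only that these letters are not there. The Mat2a window, not shown, held a TATA box match 32 bases before the annotated start. The arrays measured transcript levels and nothing at the promoters, so no motif was set against a level.

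The further genes of the pathway, 87 in 8 lists around the cycle, gave 84 tested genes, 44 higher and 40 lower in knockout, with a median difference of 0.02. By limma 0 passed the adjusted p, 2 had an unadjusted p under 0.05 beside 2.98% of all features, and 3, all higher in knockout, did not overlap between genotypes beside 3.53% of features higher without overlap. Amd1, Gadl1 and Slc7a11 were not tested. Of the 5 partners of the cycle's enzymes 2 were higher and 3 lower in knockout, with a median of -0.06. Mat2b, the regulatory subunit of the Mat2a enzyme, differed by 0.22 ± 0.20, and Mettl16, a methyltransferase that acts on Mat2a RNA, by -0.06 ± 0.24. The Ahcy-like genes Ahcyl1 and Ahcyl2 differed by -0.27 ± 0.28 and 0.15 ± 0.28, a further Ahcyl2 probe by -0.28, and Adk, whose enzyme removes the adenosine made by Ahcy, by -0.18 ± 0.30. Without knockout 1, Ahcyl1 gave -0.07 and Adk -0.0088.

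Glycine and serine feed one-carbon units into folate, and serine is the partner of homocysteine in the Cbs reaction. Of the 7 genes of this list, 5 were higher in knockout, with a median of 0.67, and 0 passed the adjusted p. Psph, of the last step of serine synthesis, read 11.74, 12.32 and 11.73 on knockout 1, 2 and 3, against 11.68, 10.64 and 10.46 on wild-type 1, 2 and 3. The genotypes did not overlap, but wild-type 1 lay within 0.1 of knockout 1 and 3. The difference was 1.00 ± 0.38 (unadjusted p = 0.0346, adjusted p = 0.999994 by limma), and a second Psph probe, whose genotypes overlapped, gave 0.92.

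Phgdh, of the first step of serine synthesis, differed by 0.67 ± 0.34, with a second probe at 0.65. The glycine cleavage genes Gcsh and Amt differed by 0.67 ± 0.44 and 1.38 ± 0.61, Amt being dim, at 3.89 to 6.94. Without wild-type 3 these differences were smaller, with Phgdh at 0.39, Gcsh at 0.23 and Amt at 0.82. For Psph, Phgdh, Amt and Gcsh, the genes named by the smallest unadjusted p, wild-type 1 was the highest wild-type array and wild-type 3 the lowest. Of all features, 31.6% were highest on wild-type 1 and 39.6% lowest on wild-type 3 within wild-type. Other genes of the list had another order, Psat1 being lowest on wild-type 2 and Dld and Gldc highest on wild-type 2.

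Wild-type 1 was also the highest wild-type array for some genes of sarcosine and of methyl use, such as Pipox and Gamt. Gamt, whose enzyme spends S-adenosylmethionine on creatine synthesis, read 14.04, 14.51 and 14.29 on knockout 1, 2 and 3, against 14.21, 12.18 and 12.18 on wild-type 1, 2 and 3. Wild-type 1 lay among the knockout arrays and the other wild-type arrays well below them. The difference was 1.43 ± 0.56 (unadjusted p = 0.0408, adjusted p = 0.999994 by limma), and a second probe gave 1.44. Pipox, which oxidises the sarcosine that Gnmt makes, differed by 1.02 ± 0.58, or 0.35 without wild-type 3. Of the 10 choline, betaine and sarcosine genes 6 were higher and 4 lower in knockout, with a median of 0.05. Among them, Chdh, Aldh7a1 and Pemt differed by 0.39 ± 0.29, 0.49 ± 0.30 and 0.17 ± 0.30, with 2 further Chdh probes at -0.51 and -0.17. Chdh gave 0.22 without wild-type 3 and Aldh7a1 0.28 without knockout 2.

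Of the 10 methyl acceptor genes, 5 were higher and 5 lower in knockout, with a median of -0.02. The DNA methyltransferase gene Dnmt3a did not overlap between genotypes but differed by only 0.19 ± 0.20, or 0.10 without wild-type 3. Nnmt, of nicotinamide methylation, differed by -0.50 ± 0.51.

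Of the 11 cysteine, taurine and sulfide genes tested, 5 were higher and 6 lower in knockout, with a median of -0.07. Got1, a cytosolic aspartate aminotransferase gene whose enzyme also acts on cysteine sulfinate made by Cdo1, read 12.65, 13.73 and 14.44 on knockout 1, 2 and 3, against 13.81, 16.05 and 14.83 on wild-type 1, 2 and 3. It was lower in knockout in every pair, with differences of -1.16, -2.32 and -0.39, though the genotypes overlapped. The difference of -1.29 ± 0.67 had an unadjusted p of 0.0958, or 0.0248 with the replicate number as a block, where 5.1% of all features were under 0.05, and an adjusted p of 0.930 there by limma. The mitochondrial Got2 differed by 0.36 ± 0.33. The sulfide oxidation gene Sqor differed by -0.86 ± 0.48 and Tst, a thiosulfate sulfurtransferase gene, by 0.73 ± 0.46. Got1 gave -0.71 without wild-type 2, Sqor -0.42 without knockout 1, and Tst 0.22 without wild-type 3, while Got2 gave 0.07 without knockout 2.

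Of the 7 glutathione genes, 4 were higher and 3 lower in knockout, with a median of 0.0039. Gss, of the last step of synthesis, did not overlap between genotypes, at 0.59 ± 0.37, while Gclm and Chac2 differed by -0.22 ± 0.23 and -0.29 ± 0.39. Chac1, which degrades glutathione, differed by -1.67 ± 0.82. Gss gave 0.18 and Chac2 -0.06 without knockout 2, and Chac1 -0.88 without wild-type 3. Of the 24 folate and cobalamin genes, 12 were higher and 12 lower with a median of 0.0039, led by Aldh1l1 at -0.37 ± 0.23, with Mthfd2 at -0.77 ± 0.57, Shmt2 at -0.37 ± 0.36 and Tcn2 at -0.36 ± 0.31. Without wild-type 3, Mthfd2 gave -0.28 and Shmt2 -0.01, and without knockout 1 Tcn2 gave -0.13. In polyamine synthesis and methionine salvage, 5 were higher and 5 lower, with Enoph1 at 0.41 ± 0.25, Adi1 at 0.35 ± 0.39, Srm at 0.24 ± 0.31 and Sat1 at -0.21 ± 0.32.

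**Figure D5:**
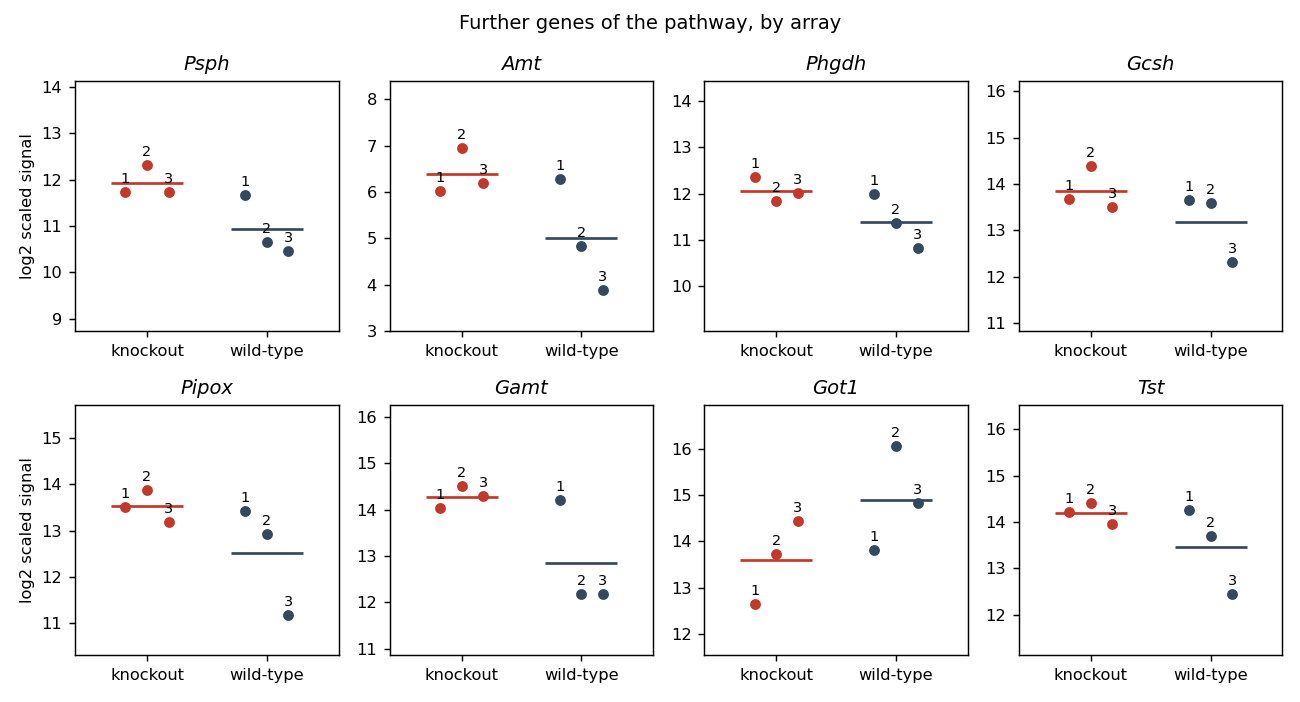
Log2 scaled signal on each array of the 4 glycine and serine genes named by the smallest unadjusted p and of Pipox, Gamt, Got1 and Tst, picked for display after their values were seen; replicate numbers stand beside the points and a bar marks the mean, knockout left of wild-type. In all but Got1, wild-type 1 lies near the knockout arrays and wild-type 3 lies lowest or level with wild-type 2.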

How the data were processed

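Cy3-labelled liver RNA was hybridised to whole-genome Agilent arrays, 3 Cugbp1 knockout and 3 wild-type, with groups and replicate numbers taken from the labels. The authors deposited linear intensity for 55681 probes, 17186 of them lacking a gene name, and a second table of log2 values. Per the submitters' processing notes, Agilent Feature Extraction was used; which of its columns became the intensity is unstated. Quantile normalization, log2 and median-centring of each probe gave the deposited log2 values again, to within 0.01 for at least 99.96% of probes on every array, and these served as an alternative.

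Intensities were scaled to each array's 75th percentile, floored at 1 and taken to log2. Detection meant a signal over the 30th percentile of the array, and probes detected on all 3 arrays of either genotype were tested, with the brightest probe standing for its gene, which left 30929 features. Symbols were updated, for 3652 probes, through a gene table of GRCm38.p6. The comparison was fitted with limma 3.58.1 in R 4.3.3 (lmFit, eBayes, two-sided, Benjamini-Hochberg over all features, adjusted p 0.05), and Mat2a minus Mat1a was given as values with no test. An exact permutation test of 3 against 3 cannot go below p = 0.1. The number of arrays limits the precision. In simulated data of 30892 genes with 200 changed, the fit recovered 0% of genes changed by 1 on the log2 scale. It recovered 40.4% of those changed by 2 and 74.8% of those changed by 3, with 4 false calls per run. The simulated noise was independent between arrays, without the likeness of same-numbered arrays or the differences in sex and tissue content seen here. The 200 planted changes also make the adjusted p easier to pass than in the real fit, where 1 feature passed. Celf1, at -3.03, did not pass there, so the recovery in these data may be lower than the simulated one.

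Same-numbered arrays correlated at 0.36, 0.26 and 0.30 after removal of group means. On that ground, differences are also given by replicate number, as pairs, though the labels state no pairing. The main fit did not use the replicate number, so its SEs, intervals and p-values are unpaired, and a replicate block was an alternative. In replicate 1 such a correlation may come from sex as well as from litter or batch. Replicate 3 had the highest muscle marker sum in both genotypes, and the source of the correlations was not tested. Other alternatives were scaling, detection level, floor, probe choice, array weights and arrays left out.

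The members, gene lists and tests were chosen with earlier results of these data known. Named genes are the 10 members, Celf1, the sex-linked check genes, all partners of the cycle's enzymes, up to 4 genes with the smallest unadjusted p from each other pathway and development list, and the 3 genes most like Mat1a and Mat2a. One gene that this rule gives is not reported here.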

Additional observations from a re-analysis of the deposited data

How the results depend on the processing

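The count of methionine cycle and transsulfuration genes past the adjusted p was 0 in all 20 alternatives, and so was that of the further pathway genes. The count over all features, 1 as reported, was 2 with median scaling or detection at the 50th percentile, 3 with every probe as a feature and 6 with array weights. It was 0 with no filter on dim probes, a floor of 16, the replicate block, the 3 arrays rich in muscle or pancreas markers left out or replicate 1 left out in both genotypes, and 0 to 1 when single arrays were left out. The median of the 10 genes was -0.55 with the 3 arrays left out and -0.32 to 0.091 with single arrays left out, and the difference in Mat2a minus Mat1a was 1.53 with the 3 arrays left out. Leaving replicate 1 out of both genotypes was chosen after seeing the data. It turned Ahcy, on its probe with the highest mean, to 0.39. The replicate block changed no call of the 10 genes.

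Cdo1 and Mtr kept their sign in all 20 alternatives. Bhmt turned to 0.017 with quantile normalization and 0.016 with the deposited log2 values. With array weights, Bhmt2, Cbs, Cth and Pemt turned to -0.064, -0.031, -0.11 and -0.13 and Nnmt to 0.099. With the 3 arrays left out, Bhmt2, Cbs, Cth, Got2, Adi1, Aldh7a1 and Pemt turned to -0.46, -0.32, -0.44, -0.26, -0.32, -0.073 and -0.034, and Mettl16, Mthfd2, Shmt2, Gclm, Chac2 and Sat1 to 0.12, 0.50, 0.037, 0.095, 0.086 and 0.060. With the mean of a gene's probes, Ahcyl2, Chdh and Gpc3 turned to -0.065, -0.096 and 0.32, and with no scaling Mettl16 to 0.051. No scaling moved the median of all features to 0.11. With single arrays left out, the differences ran from -1.15 to 0.11 for Mat1a, -0.42 to 0.11 for Mat2a, -1.11 to 0.24 for Gnmt, -0.50 to 0.067 for Bhmt, -0.18 to 0.44 for Bhmt2, -1.68 to 0.014 for Ahcy, -0.057 to 0.49 for Cbs, -0.28 to 0.33 for Cth, -0.0066 to 0.37 for Ahcyl2, -0.24 to 0.046 for Mettl16, -0.073 to 0.34 for Pemt, -0.82 to 0.017 for Nnmt, -0.044 to 0.58 for Adi1, -0.049 to 0.43 for Srm and -0.43 to 0.10 for Sat1. Features with an unadjusted p under 0.05, 923 as reported, numbered 506 with detection at the 50th percentile, 1478 with no filter, 1577 with the block, 1962 with array weights and 2419 with the 3 arrays left out. Of the 10 genes 0 were under it as reported, 1 without wild-type replicate 1 and 2 with the 3 arrays left out. Further pathway genes under it, 2 as reported, numbered 1 with a floor of 16 or array weights, 5 with the block, 4 with the 3 arrays left out, 6 with replicate 1 left out and 0 to 8 with single arrays left out. The cause of these shifts was not tested.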
